A study of Mus musculus with 6 samples.

Results

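The genes described here are 10 cytosolic heat shock and small chaperone genes, chosen by symbol from the rows of the UMI count table: *Cryab*, *Hspb1*, *Hspb6*, *Hspb7*, *Hspb8*, *Hspa8*, *Hspa1a*, *Hsp90aa1*, *Hsp90ab1* and *Bag3*. All 10 were found among the 17145 genes listed. They were measured in 3 Atf3 high and 3 Atf3 low libraries made by photo-isolation chemistry, a method in which RNA is copied to cDNA inside a tissue section and only the areas lit with ultraviolet light are amplified. Every library came from heart of FS6KD mice (genotype label Ndufs6 knockdown, sex label Female, cell type label Cardiomyocytes), in which a gene trap lowers Ndufs6, a subunit of respiratory complex I, mainly in the heart. The groups differ in the anti-Atf3 staining of the area taken, both come from diseased hearts, and no heart without the knockdown was measured by this method. The study describes the replicates of each group as biological. The age of the mice, and whether Atf3 high and Atf3 low areas were taken from the same hearts, are not given in the sources used here.

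Small heat shock proteins are ATP-independent chaperones that hold unfolding proteins in solution until they are refolded or degraded. Refolding is done by Hsp70 proteins with J-domain partners, and maturation of kinases, receptors and myosin by Hsp90. In striated muscle, Bag3 joins Hsp70 to Hspb8 and directs damaged filamin and other sarcomere proteins to autophagy, and mutations in CRYAB and BAG3 cause muscle disease. Transcription of the inducible genes is switched on by heat shock factor 1, which binds inverted repeats of GAA near the start site.

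Start-site windows from RefSeq (GRCm38.p6, 250 bases before to 50 bases after each start) were matched for 6 of the 10 genes (*Hspb1*, *Hspb6*, *Hspb7*, *Hspb8*, *Hspa1a* and *Bag3*, the second of them with 2 windows). The letters GAANNTTC, 2 facing GAA units and the same on both strands, were found in 5 of these 6 genes, which have 7 windows. They were in 7.86% of the 32851 windows of all genes, a share by window and not by gene. In the 5 genes their first base lay at −117 and −97 from the start in *Hspb1*, at −120 in the second window of *Hspb6* and at −104 in *Hspa1a*. It lay after the start at 2 in *Hspb8* and 42 in *Bag3*. *Hspb7* held no match. The other arrangement, TTCNNGAA, was in none of the 6 genes and in 8.52% of all windows, and the ATF site TGACGTCA was in none of the 6 and in 1.79%. Both read the same on either strand, and TTCNNGAA can share bases with GAANNTTC. A match of letters is a description of the sequence and not of binding. The 250 bases upstream of 4 genes are printed here in the direction of transcription, with GAANNTTC in capitals. *Hspa1a* (chr17:34972157-34972406, minus strand) and its near-copy *Hspa1b* (chr17:34959239-34959488, minus strand), which share 247 of 250 bases, are shown because their UMIs were found in the same libraries. *Hspb1* (chr5:135887669-135887918, plus strand) is shown because it holds 2 matches, and *Hspb7* (chr4:141420529-141420778, plus strand) because it holds none.
Hspa1a: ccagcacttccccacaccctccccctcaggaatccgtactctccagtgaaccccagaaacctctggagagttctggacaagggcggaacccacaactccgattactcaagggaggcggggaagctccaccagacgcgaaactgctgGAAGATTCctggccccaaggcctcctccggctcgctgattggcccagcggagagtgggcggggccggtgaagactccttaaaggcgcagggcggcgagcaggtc
Hspa1b: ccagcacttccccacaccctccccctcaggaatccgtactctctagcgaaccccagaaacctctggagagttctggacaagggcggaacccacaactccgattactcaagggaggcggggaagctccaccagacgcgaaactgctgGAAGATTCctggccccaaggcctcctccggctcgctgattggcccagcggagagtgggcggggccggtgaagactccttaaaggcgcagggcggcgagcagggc
Hspb1: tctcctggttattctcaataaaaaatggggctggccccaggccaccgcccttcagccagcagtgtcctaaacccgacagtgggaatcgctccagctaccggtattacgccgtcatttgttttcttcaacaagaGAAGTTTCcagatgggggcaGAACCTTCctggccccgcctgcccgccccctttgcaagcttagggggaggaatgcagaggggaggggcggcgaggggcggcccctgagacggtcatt
Hspb7: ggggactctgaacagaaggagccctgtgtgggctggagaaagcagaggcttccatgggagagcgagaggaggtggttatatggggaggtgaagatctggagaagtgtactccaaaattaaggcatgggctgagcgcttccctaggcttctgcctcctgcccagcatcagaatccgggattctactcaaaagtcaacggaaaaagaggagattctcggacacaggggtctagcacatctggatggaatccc

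The libraries held 81117 to 210588 UMIs (unique molecular identifiers, tags that let each cDNA molecule be counted once), by replicate number 184872, 81117 and 210588 for the Atf3 high areas and 171536, 125522 and 81917 for the Atf3 low areas. Levels are given as CPM, UMI counts scaled to a common library size with TMM factors, and 1 UMI was worth 4.66 to 13.6 CPM, so that 0 UMIs allow 14.0 CPM in Atf3 high replicate 3 and 40.9 CPM in Atf3 low replicate 3 (the level of 3 UMIs, counting error only). The label Female did not match Atf3 high replicate 2, where the Y-linked *Ddx3y* and *Eif2s3y* had 16 UMIs together and *Xist* had 0, while the other 5 libraries had 0 or 1 and 3 to 26. *Atf3* itself had 50, 7 and 25 UMIs in Atf3 high, against 35, 0 and 8 in Atf3 low (log2 fold change 0.40, edgeR adjusted p = 0.996), and *Ndufs6* had 5 UMIs in all. In CPM, *Atf3* was at 254, 84.5 and 116 against 236, 0 and 109, so that the groups overlapped and the library labelled Atf3 low replicate 1 lay above those labelled Atf3 high replicates 2 and 3. The areas were chosen by staining of the Atf3 protein, and the labels were kept as given. Cardiomyocyte markers were present in every library, with summed levels of 22962 to 59925 CPM over 9 genes.

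Together the 10 genes took 1.64, 1.28 and 1.03% of the UMIs in Atf3 high, against 1.27, 0.919 and 1.06% in Atf3 low. *Cryab* alone accounted for 0.520 to 1.00% and ranked 21st of all genes by mean level. Ordered by mean CPM, the genes ran *Cryab*, *Hspb6*, *Hspa8*, *Hsp90ab1*, *Hspb7*, *Hspb8*, *Hspb1*, *Hsp90aa1*, *Bag3* and *Hspa1a*. The lowest library for *Cryab* (5448 CPM) lay above the highest for *Hspb6* (1968 CPM), while the ranges of every other pair of neighbours overlapped. Per kilobase of the longest coding transcript, *Cryab* and *Hspb6* kept the first places at a mean of 6642 and 1034 CPM per kb, and *Hspa1a* the last at 28.4. The libraries count 1 tag at the 3′ end of a molecule, so that the CPM order needs no length correction and the order per kilobase is given beside it.

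**Figure D1:**
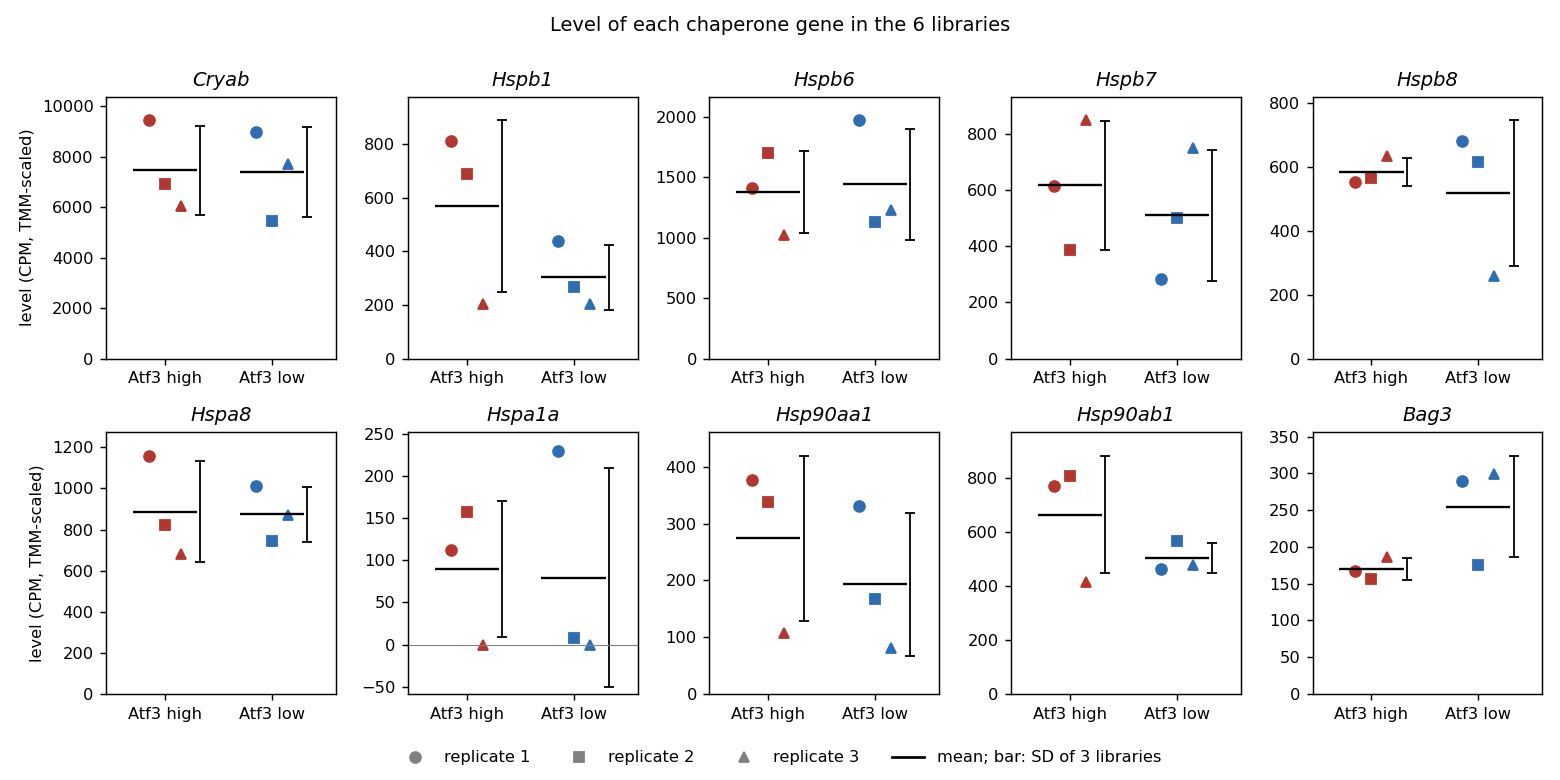
Level in CPM (vertical axis, linear) of each of the 10 chaperone genes in the 3 Atf3 high (red) and 3 Atf3 low (blue) libraries, with marker shapes for the replicate number, the group mean as a line and its SD (n = 3 libraries) as a bar. The groups overlap for every gene, and *Hspb1*, *Hspa1a* and *Hsp90aa1* are spread widely within both groups.

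Among the small heat shock proteins, the level of *Cryab* did not separate the groups. *Cryab* (αB-crystallin, the chaperone of desmin and titin; chr9:50751325-50756636, plus strand, 4 exons) had 1857, 573 and 1295 UMIs in Atf3 high, against 1332, 653 and 566 in Atf3 low, which gave 9436, 6915 and 6032 against 8976, 5448 and 7709 CPM. The replicate 1 library was the highest of both groups. The means were 7461 ± 1766 and 7377 ± 1787 CPM (SD, n = 3 each), and the log2 fold change was 0.02 with a 95% interval of −0.59 to 0.62. *Cryab* shares 1030 bases with *Hspb2* on the opposite strand, and strand use in counting is not given in the sources used here, but *Hspb2* had 19 UMIs in all against 6276.

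*Hspb6* (Hsp20, a phosphorylated small chaperone of heart and smooth muscle; chr7:30552178-30555443) was next in level, at 1407, 1702 and 1025 CPM in Atf3 high and 1968, 1126 and 1226 CPM in Atf3 low. Its log2 fold change was −0.07 (95% interval −0.79 to 0.65). *Proser3* overlaps *Hspb6* by 122 bases on the opposite strand and had 13 UMIs in all. *Hspb7* (cvHsp, a filamin-binding small chaperone of the heart; chr4:141420779-141425311) was at 615, 386 and 848 CPM against 283, 501 and 749 CPM. It was lowest in the library where *Hspb6* was highest, Atf3 low replicate 1. The log2 fold change was 0.30 (−0.54 to 1.14). *Hspb8* (Hsp22, the partner of Bag3; chr5:116408491-116422864, minus strand) was even in Atf3 high, at 554, 567 and 633 CPM, and spread in Atf3 low, at 681, 617 and 259 CPM, where the last value rests on 19 UMIs. Its log2 fold change was 0.16 (−0.66 to 0.97).

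*Hspb1* (Hsp25 of the mouse, which binds actin and is induced by stress; chr5:135887919-135889563) had the largest fold change of the 10 genes in size. It had 160, 57 and 44 UMIs in Atf3 high, against 65, 32 and 15 in Atf3 low, or 813, 688 and 205 CPM against 438, 267 and 204 CPM. Atf3 high replicates 1 and 2 lay above all Atf3 low libraries, and Atf3 high replicate 3 was at the level of the lowest of them. The means were 569 ± 321 and 303 ± 121 CPM (SD, n = 3), with a log2 fold change of 0.88 (SE 0.45, 95% interval −0.04 to 1.79). This did not pass the test (edgeR adjusted p = 0.912, exact permutation p over libraries = 0.3). Within the 5 small chaperones *Hspb1* made up 6.34, 6.71 and 2.34% of the UMIs in Atf3 high, against 3.55, 3.35 and 2.01% in Atf3 low. *Cryab* made up 67.4 to 76.0% of them, with a mean of 70.0% ± 3.20 in Atf3 high and 72.4% ± 3.77 in Atf3 low (difference −2.38 points, two-sided exact permutation p = 0.5, where 0.1 is the smallest that 3 against 3 libraries allow).

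The Hsp70 proteins were a constitutive gene with an even level and an inducible pair that was high in 3 libraries and near 0 in 3. *Hspa8* (Hsc70, the constitutive Hsp70 of the cytosol; chr9:40800984-40810087) was at 1159, 821 and 680 CPM in Atf3 high and 1011, 742 and 872 CPM in Atf3 low, with a log2 fold change of 0.02 (−0.73 to 0.76). Its 5 processed pseudogenes with at least 95% identity had 21 UMIs in all against 745.

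*Hspa1a* (the heat-inducible Hsp70; chr17:34969190-34972156, minus strand, 1 exon) had 22, 13 and 0 UMIs in Atf3 high, against 34, 1 and 0 in Atf3 low. *Hspa1b*, which is 99.2% identical to it over 2201 bases, had 27, 10 and 1 UMIs against 43, 0 and 0. *Gm20481* lies across 2225 bases of *Hspa1a* on the other strand and had 0 UMIs. The division of reads between the near-copies is uncertain, and their sum was 49, 23, 1, 77, 1 and 0 UMIs in the same order, or 249, 278 and 4.66 CPM in Atf3 high and 519, 8.34 and 0 CPM in Atf3 low. Atf3 high replicates 1 and 2 and Atf3 low replicate 1 therefore held nearly all of these UMIs, and the other 3 libraries lay at or under the 3-UMI floor. The log2 fold change of *Hspa1a* was −0.05 (95% interval −1.73 to 1.63), and without Atf3 low replicate 1 it was 3.80 on a single UMI in Atf3 low, a size that depends on the prior count (edgeR adjusted p = 0.688).

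Set against *Hspa8* in the same library, a measure that needs no scaling, *Hspa1a* and *Hspa1b* made up 17.7% of the UMIs of the 3 genes in Atf3 high replicate 1 (exact Clopper-Pearson 95% interval 13.4 to 22.7%), 25.3% in replicate 2 (16.7 to 35.5%) and 0.680% in replicate 3 (0.0172 to 3.73%). In Atf3 low the shares were 33.9% (27.8 to 40.5%), 1.11% (0.0281 to 6.04%) and 0% (0 of 64 UMIs, up to 5.60%). The intervals of Atf3 high replicates 1 and 2 lie wholly above that of replicate 3, and that of Atf3 low replicate 1 above those of the other two Atf3 low libraries. Between the groups the mean share was 14.5% ± 12.6 and 11.7% ± 19.3 (SD, n = 3; difference 2.87 points, two-sided exact permutation p = 0.9). Pooling the UMIs turned the difference to −6.30 points, and leaving out Atf3 high replicate 2, Atf3 low replicate 2 or Atf3 low replicate 3 turned it to −2.49, −2.41 and −2.97 points.

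**Figure D2:**
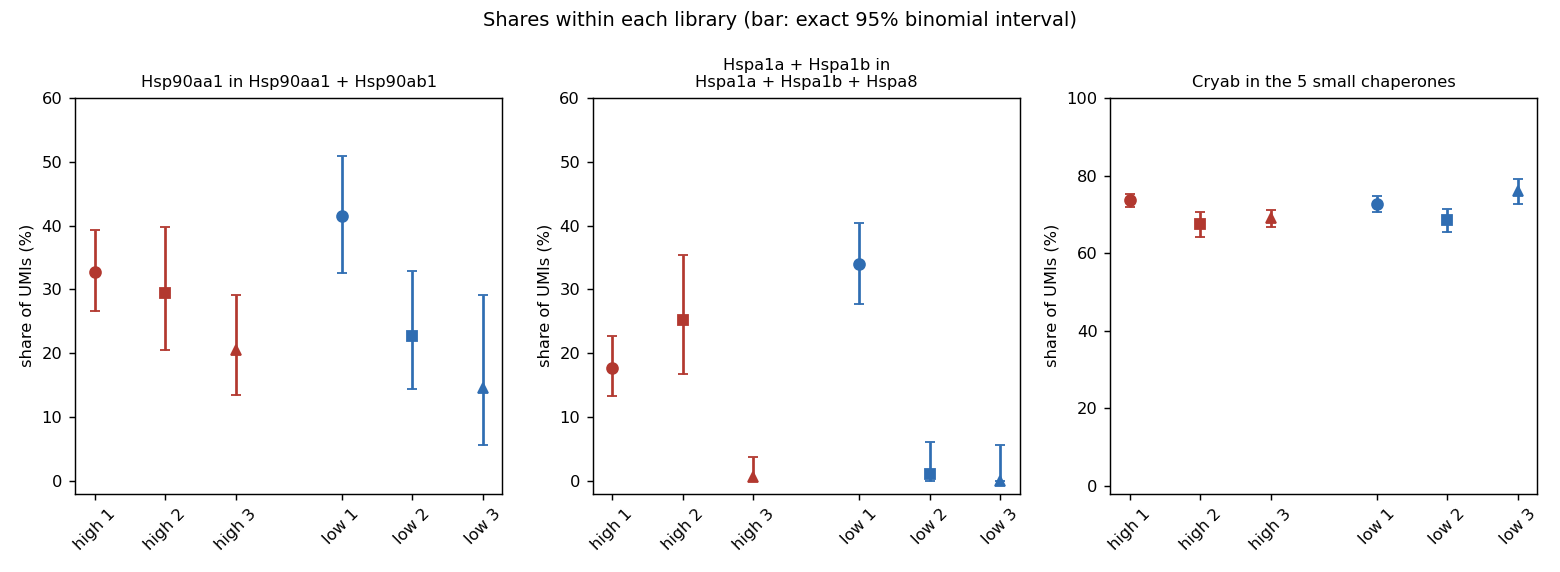
Share of UMIs in percent (vertical axes) in each library for *Hsp90aa1* among the Hsp90 pair, for *Hspa1a* and *Hspa1b* among them and *Hspa8*, and for *Cryab* among the 5 small chaperones, with Atf3 high in red, Atf3 low in blue and bars for the exact 95% binomial interval (counting error only). The *Hspa1a* and *Hspa1b* share runs from 0 to 33.9% within Atf3 low alone, while the *Cryab* share stays between 67.4 and 76.0%.

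Of the Hsp90 genes, *Hsp90ab1* (the constitutive form; chr17:45567775-45573271, minus strand) was at 772, 809 and 415 CPM in Atf3 high and 465, 567 and 477 CPM in Atf3 low. Atf3 high replicates 1 and 2 were the highest of the 6 libraries and Atf3 high replicate 3 the lowest. The log2 fold change was 0.39 (−0.41 to 1.19). *Hsp90aa1* (the inducible form; chr12:110690605-110702728, minus strand) was at 376, 338 and 107 CPM against 330, 167 and 81.7 CPM, from 74, 28, 23, 49, 20 and 6 UMIs. It spanned 3.51-fold within Atf3 high and 4.04-fold within Atf3 low, against a ratio of 1.42 between the group means. *Hsp90aa1* had a log2 fold change of 0.44 (−0.59 to 1.47). Its listed pseudogenes had 9 UMIs in all. *Hsp90aa1* made up 32.7, 29.5 and 20.5% of the Hsp90 pair in Atf3 high, against 41.5, 22.7 and 14.6% in Atf3 low (mean 27.6% ± 6.32 and 26.3% ± 13.8, difference 1.29 points, two-sided exact permutation p = 1). The difference was −1.29, −0.50 and −4.54 points without Atf3 high replicate 1, Atf3 low replicate 2 and Atf3 low replicate 3, and −1.50 points with UMIs pooled.

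*Bag3* (the co-chaperone that joins Hsp70 to small heat shock proteins; chr7:128523616-128546981) was the gene with the largest decrease in size. It had 33, 13 and 40 UMIs in Atf3 high, against 43, 21 and 22 in Atf3 low, or 168, 157 and 186 CPM against 290, 175 and 300 CPM. Atf3 low replicate 2 lay within the range of Atf3 high and the other two Atf3 low libraries above it. The means were 170 ± 14.9 and 255 ± 69.2 CPM (SD, n = 3), and the log2 fold change was −0.57 (SE 0.47, 95% interval −1.52 to 0.39; edgeR adjusted p = 0.996).

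The comparison of Atf3 high with Atf3 low asked whether chaperone genes differ between cardiomyocyte areas with more and less Atf3, a stress response transcription factor. None of the 10 genes passed an adjusted p of 0.05 in the quasi-likelihood test of edgeR, adjusted by Benjamini-Hochberg over 7665 genes, where 7 genes passed (0.0913%). At an unadjusted p under 0.05 there were also 0 of 10, against 5.79% of all genes, and 0 of 10 had groups that did not overlap, against 11.0%. DESeq2 and limma-trend called 0 of 10 as well. The log2 fold change was above 0 for 7 of the 10 genes and 55.2% of all genes, with a median of 0.09 over the 10 genes and 0.11 over all genes tested. For each gene the 95% interval gives the differences that these libraries do not exclude. It was narrowest for *Cryab* (−0.59 to 0.62) and widest for *Hspa1a* (−1.73 to 1.63). In bulk areas of tissue, fewer cells of a type and less RNA per cell cannot be told apart.

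**Figure D3:**
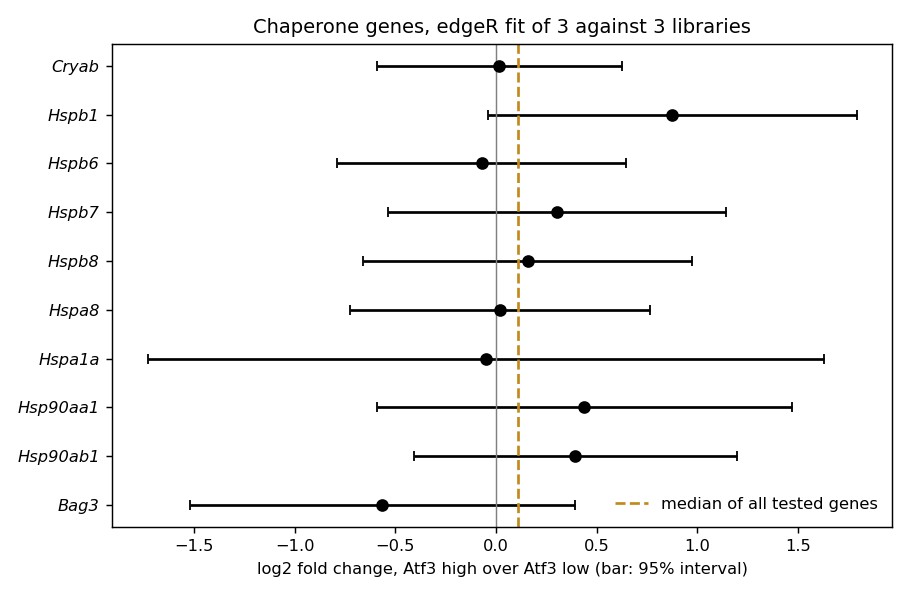
Log2 fold change of Atf3 high over Atf3 low (horizontal axis) with its 95% interval from the edgeR fit for the 10 chaperone genes, with the median of all 7665 genes tested as a dashed line. Every interval includes 0, from *Hspb1* at 0.88 to *Bag3* at −0.57.

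Without the library whose sex-linked genes went against its label, Atf3 high replicate 2, again 0 of the 10 genes were called. *Hspb1* then had a log2 fold change of 0.71, *Hsp90ab1* 0.23, *Hsp90aa1* 0.26, *Hspb7* 0.53, *Hspb8* 0.16, *Hspa8* 0.06, *Cryab* 0.06, *Hspb6* −0.26, *Bag3* −0.53 and *Hspa1a* −0.64. No gene changed sign.

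Of the 10 genes, *Hspb1* and *Hsp90aa1* had the same order of libraries, which crossed the groups. Both ran, from high to low, Atf3 high replicate 1, Atf3 high replicate 2, Atf3 low replicate 1, Atf3 low replicate 2, Atf3 high replicate 3 and Atf3 low replicate 3, and the first 3 of these were also the libraries with most of the *Hspa1a* UMIs, although *Hspa1a* was highest in Atf3 low replicate 1. For *Hspb1* the last 2 libraries, at 205 and 204 CPM, lay closer than the level of 1 UMI. The lowest library for *Hsp90aa1* rests on 6 UMIs. *Bag3* had another order, with Atf3 low replicate 3 the highest and Atf3 high replicate 2 the lowest. The summed level of 7 fibroblast markers had the order of *Hspb1* and *Hsp90aa1*. It was 5091, 2872 and 1868 CPM in Atf3 high and 2561, 2369 and 1444 CPM in Atf3 low. The collagens *Col1a1*, *Col1a2* and *Col3a1* together ran from 3852 to 232 CPM. Of the 7 markers, only *Col1a2* had the order of the sum. *Col1a1* and *Col3a1* were higher in Atf3 low replicate 1 (532 and 876 CPM) than in Atf3 high replicate 2 (495 and 833 CPM). *Gsn* was highest in Atf3 low replicate 2 (1018 CPM) and lowest in Atf3 low replicate 1 (80.9 CPM). Of the fibroblast markers 6 of 7 were higher in Atf3 high (median log2 fold change 0.68), 2 at an unadjusted p under 0.05 and 0 after adjustment. Of all genes tested 55.2% were higher (median 0.11), and 272 of 7665 were higher at an unadjusted p under 0.05. The part of fibroblast RNA in the levels of *Hspb1* and *Hsp90aa1* was not tested.

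Cardiomyocyte markers were lower in Atf3 high for 9 of 9 genes (median log2 fold change −0.58), where 3432 of the 7665 genes tested were lower. At an unadjusted p under 0.05 there were 4 of 9, where 172 of the 7665 genes were lower at that level. Groups did not overlap for 3 of 9, against 11.0% of all genes in either direction. After adjustment 1 was called, *Myh6* (α-myosin heavy chain), at 1992, 2595 and 4546 CPM against 10694, 9060 and 12244 CPM (log2 fold change −1.81, edgeR adjusted p = 0.00512). The call was lost when 1 library was left out in 4 of 6 cases, with an edgeR adjusted p of 0.209 without Atf3 high replicate 1, 0.115 without Atf3 high replicate 2, 0.0508 without Atf3 low replicate 1 and 0.273 without Atf3 low replicate 3, while the log2 fold change stayed between −2.22 and −1.58. Their sum was 22962, 23643 and 44022 CPM in Atf3 high and 45034, 49688 and 59925 CPM in Atf3 low. Beside them the chaperones described above for muscle had log2 fold changes of 0.02 (*Cryab*), −0.07 (*Hspb6*), 0.30 (*Hspb7*), 0.16 (*Hspb8*) and −0.57 (*Bag3*). Mural cell markers were higher for 6 of 6 genes, where 55.2% of all genes were higher. Their median was 0.80 (sums 253 to 711 CPM in Atf3 high and 136 to 559 CPM in Atf3 low), with 0 at an unadjusted p under 0.05. Endothelial markers summed to 990 to 1352 CPM and 817 to 1395 CPM, and macrophage markers to 172 to 361 CPM and 243 to 359 CPM, with *Adgre1* at 0 in 4 of the 6 libraries. Erythrocyte markers were at 0 to 157 CPM, with 3 of 5 genes not listed. The part of these cells in the chaperone levels was not tested.

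**Figure D4:**
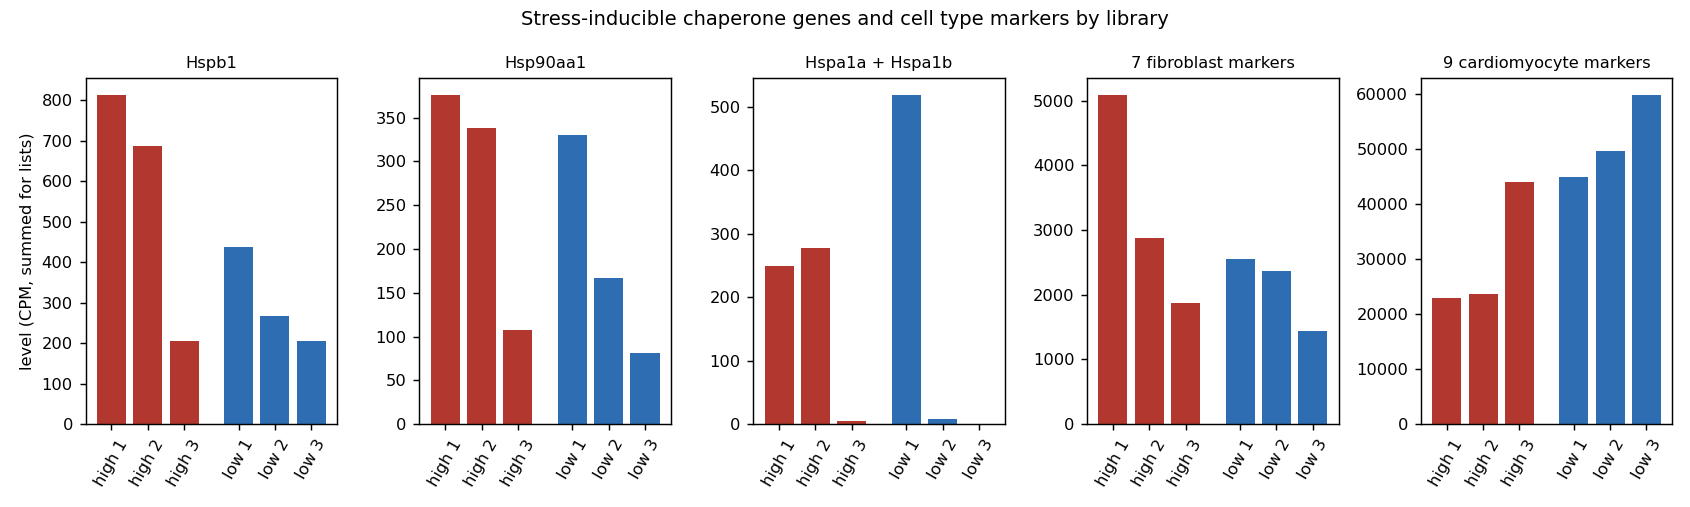
Level in CPM (vertical axes, from 0) per library of *Hspb1*, *Hsp90aa1*, the sum of *Hspa1a* and *Hspa1b*, and the summed fibroblast and cardiomyocyte markers, with Atf3 high in red and Atf3 low in blue. *Hspb1*, *Hsp90aa1* and the sum of the fibroblast markers rank the 6 libraries alike, but of the single fibroblast markers only *Col1a2* does. *Hspa1a* with *Hspa1b* is near 0 in Atf3 high replicate 3 and Atf3 low replicates 2 and 3.

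The partners of these chaperones were followed in 71 further genes of cytosolic folding, of which 66 were listed and 61 tested. After adjustment 0 of 61 were called in edgeR, and DESeq2 and limma-trend called 0 as well. At an unadjusted p under 0.05 in edgeR there were 2 of 61, against 5.79% of all genes, and both were higher in Atf3 high. The log2 fold change was above 0 for 40 and below 0 for 21, with a median of 0.18 against 0.11 over all genes. Groups did not overlap for 6 of the 61, against 11.0% of all genes.

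By role, 6 of 7 other Hsp70 and Hsp110 genes tested were higher (median log2 fold change 0.59). So were 6 of 6 BAG proteins and other Hsp70 partners (0.45) and 7 of 8 clients and partners of Bag3 and the small chaperones (0.47). Of all genes tested 55.2% were higher, and the 2 with an unadjusted p under 0.05 were both among the Hsp70 and Hsp110 genes. The J-domain proteins (5 of 10 higher, −0.07), the Hsp90 co-chaperones (8 of 12, 0.12) and the TRiC and prefoldin genes (6 of 13, −0.05) were divided. The 3 other small heat shock genes tested were lower (−0.44), on only 19, 13 and 10 UMIs in all, and 2 more of that list had none. *Hsf1*, heat shock factor 1, had 5, 1 and 6 UMIs against 3, 5 and 0 (log2 fold change 0.05, SE 1.12), too few to tell a difference.

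*Hspa4l* (an Hsp110 protein, a nucleotide exchange factor of Hsp70) had 117, 48.3 and 112 CPM in Atf3 high and 6.74, 33.4 and 27.2 CPM in Atf3 low. The groups did not overlap, but the lowest Atf3 high library and the highest Atf3 low library both rest on 4 UMIs. Its log2 fold change was 2.11 (SE 0.82, edgeR adjusted p = 0.666). *Hspa12b*, a distant Hsp70 relative of endothelial cells, had 6, 0 and 23 UMIs against 1, 0 and 0 (edgeR adjusted p = 0.649, with a fold change that depends on the prior count).

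*Cct4*, a subunit of the chaperonin TRiC that folds actin and tubulin, was at 239, 290 and 284 CPM in Atf3 high and 189, 133 and 95.3 CPM in Atf3 low (log2 fold change 0.92, SE 0.48, edgeR adjusted p = 0.912). *Vim*, the intermediate filament vimentin of mesenchymal cells, was at 406, 217 and 200 CPM against 168, 117 and 177 CPM (log2 fold change 0.85), without overlap as for *Cct4*. *Sqstm1*, the autophagy receptor p62, was at 930, 965 and 405 CPM against 310, 476 and 654 CPM, and its groups overlapped (log2 fold change 0.68). *Pfdn2*, a prefoldin subunit, had a log2 fold change of 1.52 on 38 UMIs in all. *Hspb2*, the neighbour of *Cryab*, had 0, 1 and 5 UMIs against 4, 5 and 4 and was named after its values were seen.

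**Figure D5:**
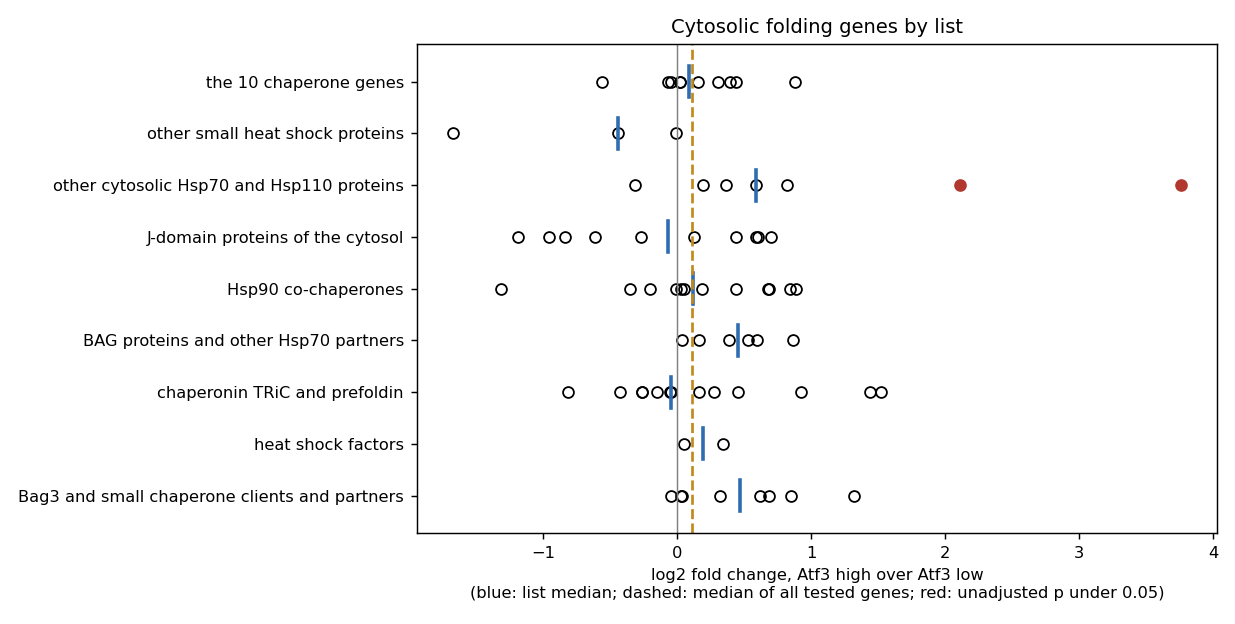
Log2 fold change of Atf3 high over Atf3 low (horizontal axis) of the 10 chaperone genes and of the 61 other tested genes of cytosolic folding by list, with each list's median in blue and the median of all genes tested as a dashed line. Filled red points, *Hspa4l* and *Hspa12b*, have an unadjusted p under 0.05, and no point passed adjustment.

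Across the 6 libraries, the summed level of the 5 small chaperones was 12825, 10258 and 8743 CPM in Atf3 high and 12345, 7959 and 10146 CPM in Atf3 low, which follows *Cryab*. Of 1233 other genes with a mean of at least 100 CPM, those whose log2 level was most like it were *Rragc* (Pearson r = 0.97), *Tinagl1* (0.96), *Rps21* (0.95), ENSMUSG00000097554 (0.94) and *Pa2g4* (0.93). These are the highest of 1233 correlations over 6 points that share library depth and composition, and are given as a description.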

How the data were processed

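The authors aligned CEL-seq2 reads with HISAT2 (version 2.1.0) to the GRCm38 genome. The submitters' processing notes also name UMI-tools (version 1.0.0) and featureCounts (version 1.6.4). The annotation, the strand setting and the handling of reads with several matches are not given in the sources used here. What was deposited is a table of UMI counts, a row per gene, not normalized. Depth was 81117 to 210588 UMIs per library, and the common biological coefficient of variation was 53.6%.

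The titles gave the groups. The 7665 genes whose summed count reached 10 UMIs were scaled by TMM and tested by glmQLFit and glmQLFTest of edgeR (version 4.0.16, R version 4.3.3), with Benjamini-Hochberg adjustment over all of them at 0.05. Shares of UMIs were compared by an exact permutation test over libraries with SciPy (version 1.17.1). Copies were found by BLAST+ (version 2.17.0) at 95% identity over 200 bases. Likeness used log2(CPM + 4). Alternatives were other scalings and filters, DESeq2 (version 1.42.0), limma-trend (version 3.58.1), summing of near-copies, a replicate block and leaving out each library. The tests were checked on simulated data.

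The genes and lists were chosen with earlier results of these data known. Named are the 10 genes, the 6 partner genes of smallest p with *Hspa1b* and *Hsf1*, the 5 genes most like the small chaperones, near-copies, and checks of the libraries (*Atf3*, *Ndufs6*, *Myh6*, *Xist*, *Ddx3y* and *Eif2s3y*).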

Additional observations from a re-analysis of the deposited data

How the results depend on the processing

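None of the 10 chaperone genes was called under any of the 14 alternatives computed for them, and no partner gene under any of 13. Some alternatives tested fewer genes, down to 1988 with the filter filterByExpr against 7665. How many of the 61 partner genes each of them tested was not counted. The smallest edgeR adjusted p of the 10 chaperone genes was 0.415 (*Hspb1*, without Atf3 high replicate 3). *Hspb1*, *Hsp90aa1*, *Hsp90ab1* and *Bag3* kept their direction under every alternative. An unadjusted p under 0.05 was reached by *Hspb1* with library size alone, no filter, the replicate block, or when Atf3 high replicate 3 or Atf3 low replicate 1 was left out, and by *Hspa1a* without Atf3 low replicate 1. Over all genes, 7 were called, 12 by DESeq2, 24 with the replicate block and 0 to 11 with a library left out (1 without high replicate 1, without high replicate 2 and without low replicate 3, 11 without high replicate 3, 6 without low replicate 2, and 0 without low replicate 1, where 477 had an unadjusted p under 0.05). The cause was not tested.

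Where the sign turned, the log2 fold change was −0.011 for *Cryab* and −0.0088 for *Hspa8* with the size factors of DESeq2 in edgeR, −0.011 and −0.0085 with DESeq2, 0.15 for *Hspb6* and 0.21 for *Hspa1a* with library size alone, 0.21 for *Hspa1a* with DESeq2, and −0.0047 for *Hspa8* and 0.48 for *Hspa1a* with limma-trend. With library size alone the median of all genes moved from 0.11 to 0.31 and that of the 10 genes from 0.09 to 0.30. With the replicate block *Hspa8* was at −0.0018 and *Hspa1a* at 0.65. Same-numbered libraries correlated at 0.22, 0.04 and 0.22 in their deviations over 2656 genes, so the numbers were not taken as pairs. Each library was most like its own number, but for number 2 the margin was small. Atf3 high replicate 2 correlated at 0.042 with Atf3 low replicate 2, against 0.038 with Atf3 low replicate 1. The sex-linked genes of number 2 also differed. Y-linked genes and *Xist* had 16 and 0 UMIs in the Atf3 high library, against 0 and 13 in its Atf3 low counterpart. Whether libraries of a number share a heart was not tested.

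With a library left out, log2 fold changes ran from −0.21 to 0.14 (*Cryab*), 0.52 to 1.28 (*Hspb1*), −0.27 to 0.17 (*Hspb6*), −0.044 to 0.67 (*Hspb7*), −0.17 to 0.35 (*Hspb8*), −0.22 to 0.18 (*Hspa8*), −0.64 to 3.80 (*Hspa1a*), 0.07 to 1.02 (*Hsp90aa1*), 0.23 to 0.64 (*Hsp90ab1*) and −0.83 to −0.47 (*Bag3*). The *Hsp90aa1* share differed by −4.54 to 8.90 points, the *Hspa1a* and *Hspa1b* share by −2.97 to 14.0 points and the *Cryab* share by −4.35 to −0.59 points, and with pooled UMIs by −1.50, −6.30 and −1.31 points.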
